A study of Homo sapiens with 1 sample.

Results

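The miRNAs described here were named as mature products that overlap small nucleolar RNA (snoRNA) genes, namely both arms of miR-664a, miR-664b and miR-3653, and miR-1291, miR-1248 and miR-3651. They were picked by name from the human miRNA probes of the array, by a rule that uses no signal but was set with earlier results of these data known, and were 9 of 2549 miRNAs, with 18 probes and 180 spots. The sample was RNA of DLD-1, an established human colorectal carcinoma line, grown in RPMI medium with fetal bovine serum and given a non-targeting siRNA (the si-NC group, n = 1 array). The study asked how depletion of the circular RNA circLONP2 changes miRNAs, but an array of depleted cells was not analysed here, and so no groups were compared and no test was run. Every error below is technical, and the single line and array limit what the values say about other cells.

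A snoRNA guides chemical modification of other RNAs, and most are released from introns of host genes. An H/ACA snoRNA folds into a pair of hairpins, directs the change of uridine to pseudouridine, and carries the trinucleotide ACA (the ACA box) close to its 3′ end, while a C/D snoRNA directs methylation of the ribose. Small Cajal body RNAs (scaRNAs) are related guides. Some of these RNAs are cut further into fragments of miRNA size, which miRNA databases list as mature miRNAs. Mature miRNAs cut from the 5′ and the 3′ side of a hairpin are called its 5p and 3p arms. A probe for such a miRNA can in principle also bind the longer snoRNA, and a labelled fragment and a labelled snoRNA cannot be told apart on this array.

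RefSeq (GRCh38.p14) held a mature sequence for 7 of the 9 miRNAs, all but miR-3653-3p and miR-3653-5p. These sequences are shown because they set the members apart from one another. The seed, bases 2 to 8, which pairs with target mRNAs, is in capitals.
miR-664a-5p: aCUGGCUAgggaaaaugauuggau
miR-664a-3p: uAUUCAUUuauccccagccuaca
miR-664b-5p: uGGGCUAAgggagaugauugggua
miR-664b-3p: uUCAUUUGccucccagccuaca
miR-3651: cAUAGCCCggucgcugguacauga
miR-1291: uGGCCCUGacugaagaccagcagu
miR-1248: aCCUUCUUguauaagcacugugcuaaa

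All 7 seeds differed from one another. Outside the members, miR-6775-3p had the seed of miR-1291, miR-4794 that of miR-664a-5p and miR-579-3p that of miR-664b-3p, and the other 4 seeds were shared with no array miRNA that has a RefSeq sequence. The closest pair was miR-664a-3p and miR-664b-3p, which were 5 edits apart and had the same last 11 bases, CCCAGCCUACA. No other array miRNA with a RefSeq sequence ended in the same 8 bases as either of them. Their 5p partners were 8 edits apart. The mature lengths ran from 22 bases for miR-664b-3p to 27 for miR-1248, and the share of G and C from 37.0% for miR-1248 to 58.3% for miR-3651 and miR-1291.

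The gene positions in RefSeq were used to check the overlap with snoRNAs, which held for all 5 hairpins found there. The check did not cover miR-3653, whose snoRNA overlap rests on the rule that named the members. MiR-664a lies on SNORA36B within RAB3GAP2 on chromosome 1, and miR-664b on SNORA36A within DKC1 on chromosome X. DKC1 encodes dyskerin, the enzyme of H/ACA snoRNA particles. MiR-3651 lies on SNORA84 within IARS1 (isoleucyl-tRNA synthetase) on chromosome 9, miR-1291 on SNORA2C within KANSL2 on chromosome 12, and miR-1248 on SNORA81 within EIF4A2, a translation initiation factor, on chromosome 3. All 5 snoRNAs carry the SNORA symbol of the H/ACA class. The table gives no strand for snoRNA genes, so positions within them were read on the strand of the miRNA.

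The mature miRNAs took different places in these snoRNAs. MiR-3651 reached the last base of SNORA84, while miR-664a-3p and miR-664b-3p each stopped 3 bases before the 3′ end of their snoRNA. In all 3 the letters ACA stood 3 bases from that end, the place of the ACA box. They are shown again with these letters in capitals.
miR-664a-3p: uauucauuuauccccagccuACA
miR-664b-3p: uucauuugccucccagccuACA
miR-3651: cauagcccggucgcugguACAuga

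The others lay elsewhere. MiR-664a-5p and miR-664b-5p ended 40 bases before the 3′ end of a snoRNA of 131 and 132 bases. MiR-1291 began at the second base of SNORA2C and miR-1248 began 1 base ahead of SNORA81, so both sat at the 5′ end. None of these 4 had ACA among its last 6 bases.

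**Figure D1:**
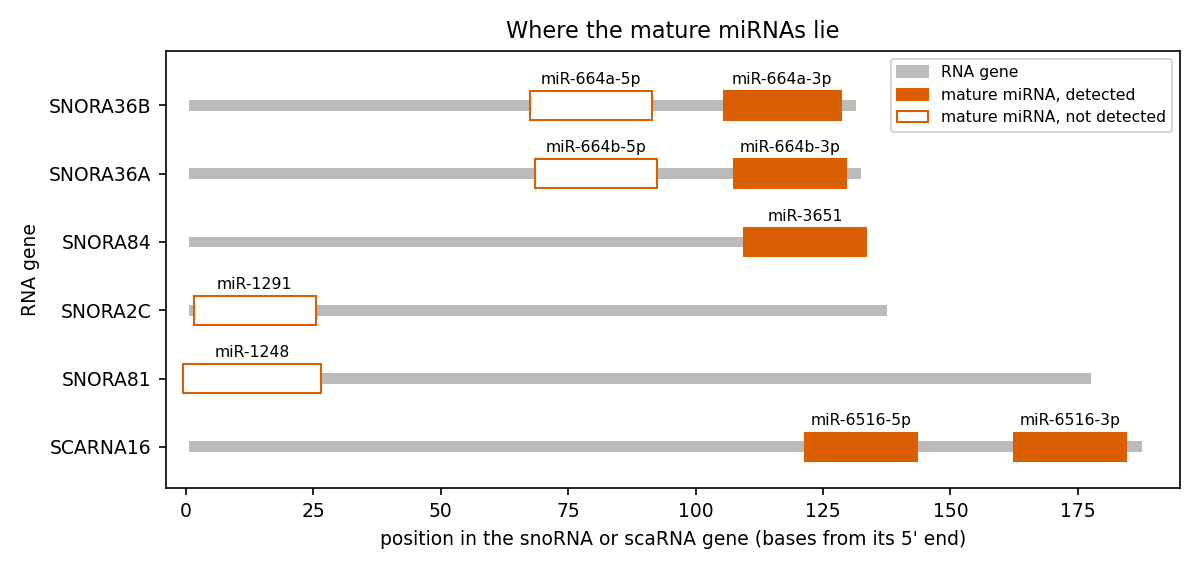
Position of each mature miRNA along the snoRNA or scaRNA gene that it overlaps, in bases from the 5′ end of that gene (RefSeq, read on the strand of the miRNA). Grey bars are the RNA genes, filled boxes are miRNAs called detected and open boxes are miRNAs not called detected. MiR-3651, miR-664a-3p, miR-664b-3p and miR-6516-3p lie at the 3′ end and were detected. MiR-6516-5p, which ended 44 bases before the 3′ end, was detected too. MiR-1291 and miR-1248 at the 5′ end were not, nor were miR-664a-5p and miR-664b-5p. The part of place in detection was not tested.

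The first question was which of these miRNAs gave a measurable signal in the control cells. The scanner software calls a miRNA detected when at least 1 of its probes has a signal of 3 times its error or more, and it called 5 of the 9 members, or 55.6%, against 44.4% of all miRNAs on the array. Called were miR-3651, miR-3653-3p, miR-3653-5p, miR-664a-3p and miR-664b-3p. Not called were miR-1291, miR-1248, miR-664a-5p and miR-664b-5p. At 9 members, a share of 55.6% is no result about the group.

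MiR-3651 gave a clear signal on both of its probes. Its total gene signal, which sums the signals of the detected probes of a miRNA in arbitrary units of intensity, was 246.7 ± 17.8 (error of the software). Signals of different miRNAs come from different probes and are not ranked here as abundance. One probe ran from 512 to 562 over its 10 spots, with a median of 532, and the other from 784 to 842 over the 8 spots left after outlier spots were removed, with a median of 810. All 20 spots were well above background, and both probes lay far above 16.1, the 99th percentile of the 1000 negative control spots.

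The 3p arms of the paralogous hairpins came next in the description. MiR-664a-3p had a total gene signal of 50.7 ± 3.71. Its probes ran from 99.9 to 158 and from 95.4 to 191, with medians of 136 and 141, so they overlapped almost fully. MiR-664b-3p had a total gene signal of 79.3 ± 5.93. Its probes ran from 89.5 to 182 and from 246 to 302, with medians of 163 and 287, and did not overlap. For both miRNAs 20 of 20 spots were well above background. Because these 3p arms share their last 11 bases, a probe to one could bind the other, and this was not tested.

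The 5p arms of the same hairpins stayed at background. MiR-664a-5p had probe means of 0.810 ± 1.29 (SD, 8 spots) and 2.70 ± 1.53 (SD, 10 spots). MiR-664b-5p had means of 0.333 ± 1.39 and 0.975 ± 1.68 (SD, 10 spots each). No spot of either was well above background, and the negative control spots themselves ran from -4.12 to 45.4 with a median of 0.0894. For both hairpins the 3p arm alone was thus called detected. Of the 810 names on the array with both arms, this state was found for 15.1%, the 5p arm alone for 20.1%, both arms for 28.6% and neither arm for 36.2%.

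Both arms of miR-3653 were called detected, but with different support. MiR-3653-3p had a total gene signal of 63.7 ± 4.58, with spots from 145 to 167 for one probe and from 177 to 205 for the other, and all 20 spots were well above background. MiR-3653-5p had a total gene signal of 2.21 ± 0.529, an error of 23.9%. One of its probes ran from 8.47 to 16.9 over 10 spots, with a median of 12.2 and 3 of 10 spots well above background, and the other a mean of 1.73 ± 1.41 (SD, 9 spots), with 0 of 10. Of its 20 spots, 1 exceeded the 99th percentile of the negative control spots. The call thus rested on 1 of the 2 probes.

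MiR-1291 and miR-1248, the members at the 5′ end of their snoRNAs, gave no signal past the rule. For miR-1291 the probe means were 1.94 ± 2.08 (SD, 10 spots) and 4.10 ± 2.25 (SD, 9 spots), and its highest spot, an outlier, reached 10.5. For miR-1248 they were -1.26 ± 1.76 (SD, 9 spots) and -0.0237 ± 1.49 (SD, 10 spots). Over the 4 undetected members 0 of 80 spots were well above background. These miRNAs were not detectable on this array, which does not show that they were absent from the cells.

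**Figure D2:**
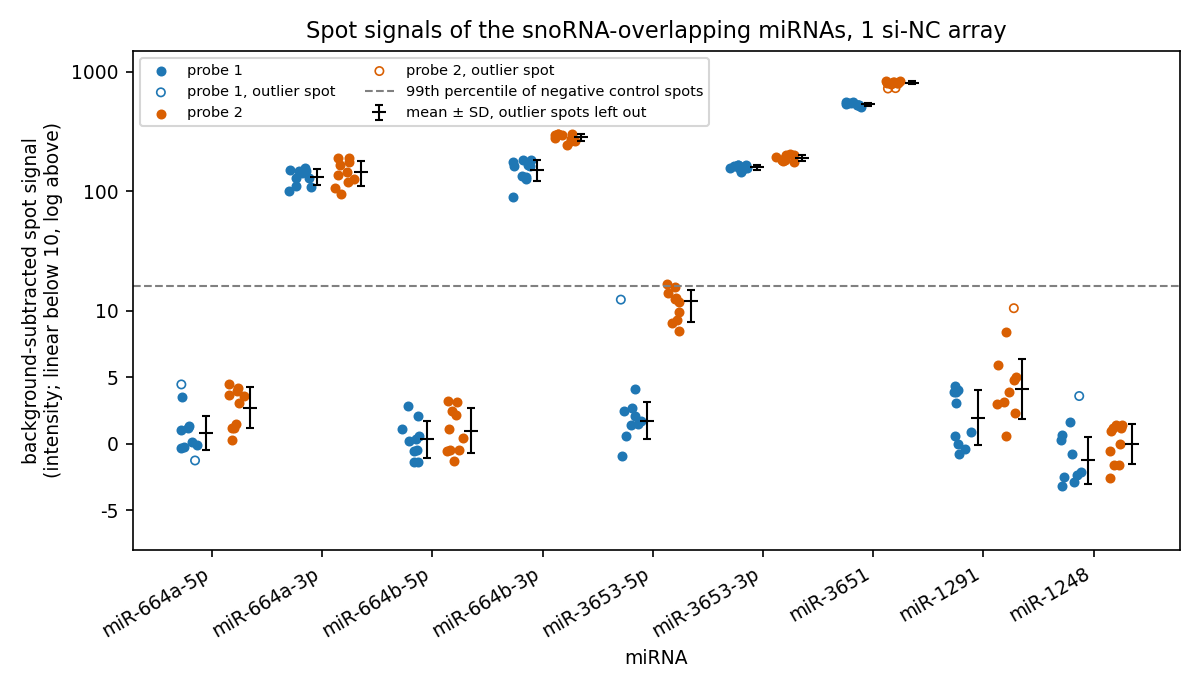
Background-subtracted signal of each spot (intensity, linear below 10 and logarithmic above) for the 2 probes of each of the 9 miRNAs on the si-NC array. Filled points are spots used, open points are outlier spots, black marks are the mean ± SD without outlier spots, and the dashed line is the 99th percentile of negative control spots, 16.1; miR-3651, miR-3653-3p, miR-664a-3p and miR-664b-3p lie wholly above it.

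Signal over error is the ratio behind the software call, so a gap at 3 between called and uncalled members is set by that rule. For the 8 probes of miR-3651, miR-3653-3p, miR-664a-3p and miR-664b-3p the ratio lay between 9.61 and 9.99. These ratios lay close together although the spread between replicate spots differed. The lowest belonged to a miR-664a-3p probe with an SD of 33.9 on a mean of 145. The highest belonged to a miR-3651 probe with an SD of 18.9 on a mean of 813. For the 8 probes of the undetected members it lay between -0.481 and 1.55, where the highest belonged to miR-1291. MiR-3653-5p was the only member in between, with 4.18 for the probe that gave the call and 0.661 for the other. The highest ratios are not particular to the members, since the probes of miR-6516-3p, a miRNA outside them, had 9.91 and 9.99. Over the array the best probe of a detected miRNA had a ratio of at least 3.00 and that of an undetected miRNA at most 2.99, as the rule requires.

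**Figure D3:**
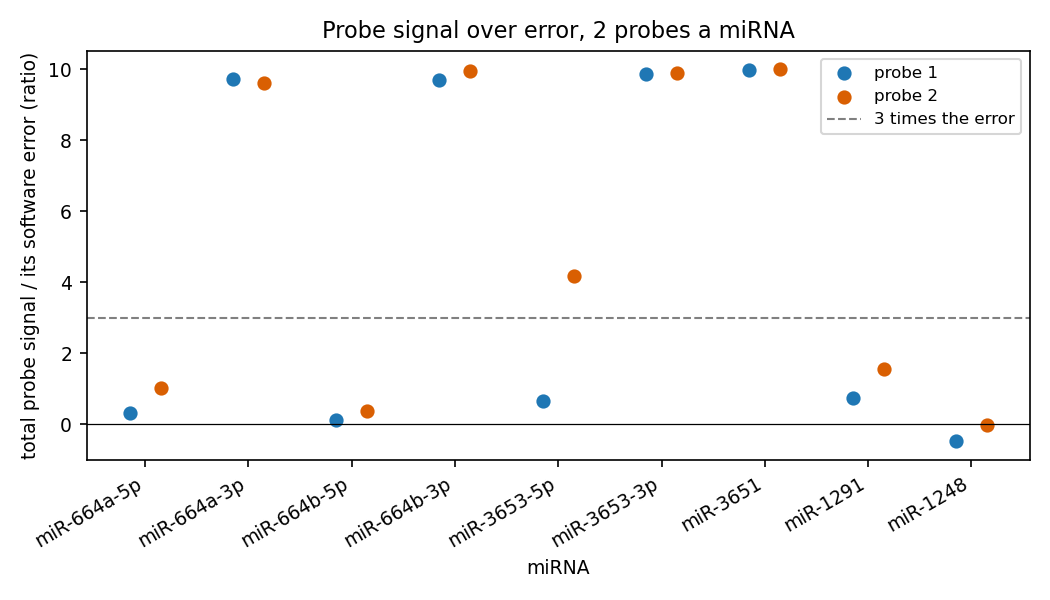
Total probe signal divided by its error from the scanner software, for probes 1 and 2 of each miRNA. The dashed line marks a ratio of 3, the limit for detection; 8 probes lie between 9.61 and 9.99, 1 probe of miR-3653-5p lies at 4.18, and the other 9 lie at or below 1.55.

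Stricter rules separated miR-3653-5p from the other detected members. It failed when at least 50% of the spots of 1 probe had to be well above background (37.9% of all array miRNAs passed), when the median spot had to exceed the negative control percentile (31.2%), when every probe had to be well above background (29.4%), and when the flag was joined with a total gene signal of 5 or more (33.3%). The remaining 4 passed every one of these rules. The 4 undetected members passed none. In the table of processed log2 values, miR-3651 stood at 8.005, miR-664b-3p at 6.37, miR-3653-3p at 6.12 and miR-664a-3p at 5.77. MiR-3653-5p stood at 2.3236, just above the floor of 2.3219 that the 4 undetected members shared.

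**Figure D4:**
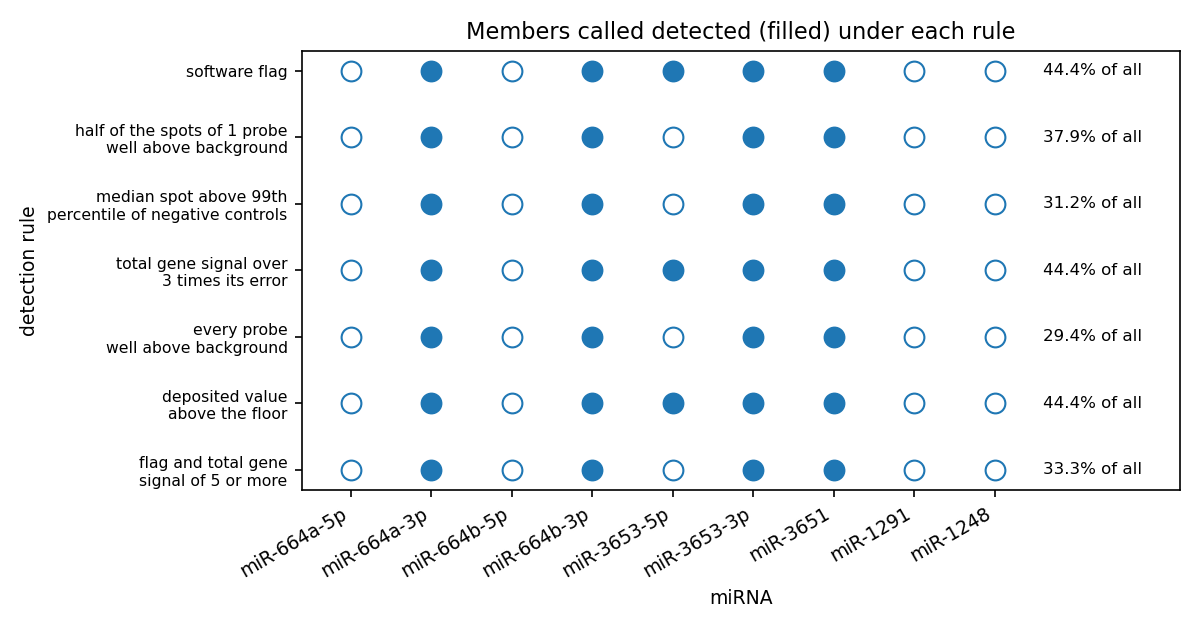
Detection of the 9 miRNAs (columns) under 7 rules (rows), where a filled circle means called detected and the percentage is the share of all 2549 miRNAs called. The 4 miRNAs miR-664a-3p, miR-664b-3p, miR-3653-3p and miR-3651 are filled in every row, and miR-3653-5p in 3 of the 7.

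Each level was also expressed as a log2 ratio to a reference signal of 143, which is the 75th percentile of all spots that belong to detected miRNAs. On this scale miR-3651 lay at 2.21 ± 0.04 (SD over replicate spots about their probe mean), miR-664b-3p at 0.52 ± 0.24, miR-3653-3p at 0.28 ± 0.07 and miR-664a-3p at -0.07 ± 0.29. The level of miR-3653-5p was -3.60 from the probe that gave the call. Its other probe was at background, and the mean over both, -4.95, is therefore no measured level. The median total gene signal of the 5 detected members was 63.7, against 12.5 over the 1133 detected miRNAs of the array, whose quartiles were 4.99 and 52.0. The 5 signals ran from 2.21 to 246.7 and come from different probes, so these medians do not rank abundance.

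Replicate spots showed how closely the spots of each probe repeated, which leaves out differences between the probes of a miRNA. The coefficient of variation (CV) between spots was 3.04% and 2.33% for the probes of miR-3651 and 4.45% and 5.44% for those of miR-3653-3p. It was larger for the miR-664 arms, with 15.2% and 23.4% for miR-664a-3p and 19.8% and 7.04% for miR-664b-3p. Probes of like brightness, within 2 fold of the mean of the 23.4% probe, had a median CV of 6.59%, and 8.82% of the 442 such probes had a larger one. For the other probe of miR-664a-3p this share was 17.9%. For the probes of miR-664b-3p it was 13.3% and, for the 7.04% probe, 32.4%.

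The spots were also split by array row, which left few spots of a probe in each part. Spots of miR-664a-3p in the array rows above 192 (of 384) averaged 141 ± 15.6 (SD, 7 spots) and 160 ± 27.8 (SD, 6 spots) for the 2 probes, against 112 ± 15.1 (SD, 3 spots) and 121 ± 30.5 (SD, 4 spots) in rows 1 to 192. The differences were 0.33 and 0.40 on the log2 scale. They were 0.35 and 0.11 for the probes of miR-664b-3p, and between 0.02 and 0.13 for those of miR-3651 and miR-3653-3p. Over 500 probes with a mean of 50 to 500 and at least 3 spots in each part, the median was 0.06, with quartiles of 0.01 and 0.15. The probes of miR-3651, with means of 536 and 813, lay outside this range. The part of position in the spread of the miR-664 spots was not tested. This split by rows was chosen after the spot values had been seen.

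The 2 probes of a miRNA were then set against each other. The brighter probe of miR-664b-3p exceeded the dimmer by 0.93 ± 0.11 on the log2 scale (SE from replicate spots), and that of miR-3651 by 0.60 ± 0.02. The difference was 0.26 ± 0.03 for miR-3653-3p. For miR-664a-3p it was 0.11 ± 0.13, within the error of the spots. The median over these 4 was 0.43, against 0.35 over the 800 miRNAs of the array with at least 2 probes past the same filter on dim probes. For those 800 the difference ran from the brightest to the dimmest such probe, and a miRNA can have more than 2.

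RefSeq positions gave 3 more array miRNAs on a gene of this class, all on scaRNA genes. All 3 were called detected, against 44.4% of all array miRNAs. They also passed every other rule, which 29.4% to 44.4% of all array miRNAs passed. At 3 miRNAs, with both arms of the same hairpin among them, this is no result about the group. MiR-6516-3p, on SCARNA16, had a total gene signal of 192 ± 15.6. MiR-6516-5p had 22.5 ± 1.74. MiR-3609, on SCARNA28, had 9.80 ± 1.02, with 18 of 20 spots well above background. MiR-6516-3p resembled the miR-664 3p arms in place, since it too ended 3 bases before the 3′ end of its RNA, with the letters ACA at its own end.
miR-6516-3p: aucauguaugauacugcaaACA

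MiR-6516-5p ended 44 bases before the 3′ end of SCARNA16 and was called detected. Of the 129 array miRNAs with ACA in the last 6 bases of their RefSeq sequence, 46.5% were called detected. The share was 45.2% with the members left out, against 44.0% of the 2119 without ACA there. The part of place in the snoRNA in detection was not tested.

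Other snoRNA motifs were counted in the hairpins, as letters in the RNA strand. The H box, ANANNA, occurred in all 5 hairpins, from 2 times in MIR1291, MIR3651 and MIR664B to 8 times in MIR1248, but also in 57.7% of the 1562 human hairpins of the table. ACA occurred in each hairpin except MIR1291, and in 63.0% of all hairpins. The C box core, UGAUGA, was in none of the 5 (2.69% of all). The D box, CUGA, occurred 2 times in MIR1291 and in no other (39.9% of all). A match of so few letters is a description and not a binding site.

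The labelled cell type was checked against marker miRNAs, set beside the 44.4% of all array miRNAs that were called detected. All 9 colon epithelium markers, among them miR-192-5p and the miR-200 family, were called detected, with total gene signals of 52.2 to 9249. Of 20 markers of other tissues 6 were called, 4 of 7 for blood (21.5 to 695), 0 of 5 for muscle, 1 of 5 for stroma and vessels (123) and 1 of 3 for liver and neural tissue (22.1). Their part in the members' signals was not tested. No miRNA spot was saturated.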

How the data were processed

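MiRNAs were measured in 1 si-NC sample of DLD-1 on a single-colour Agilent array. The submitters' processing and file headers name Feature Extraction 11.0.1.1 and an array design on hg19. The deposited intensity is background-subtracted per spot, not normalized between arrays. The labels name Cy3-pCp ligation, while the study's methods name cDNA labelling. The authors also deposited log2 values, quantile normalized in GeneSpring, whose floor was read from the values. Columns of per-sample values left out numbered 0.

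Outlier spots (7 of 180) were left out of means, SDs and CVs. Log2 levels averaged all probes of a miRNA, and spots at or below 0 have no logarithm. CVs and probe differences used probes with 50% or more of their spots flagged well above background. Alternatives were 6 detection rules, the percentile over all spots, normexp (offset 50, on the median spot signal), deposited values, outlier spots kept and no filter on dim probes. Strand was not compared for snoRNA overlaps, since the gene table lacks it. Python 3.11.15, pandas 2.3.3, numpy 2.4.6, R 4.3.3 and limma 3.58.1 were used. Only the calculations of the CV and of the probe difference were tested on simulated spots, all of them bright. All members and their miRNA neighbours by seed and by snoRNA overlap were named. The members, the lists and the split by array rows were chosen with earlier results of these data known. The single array limits the precision.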

Additional observations from a re-analysis of the deposited data

How the results depend on the processing

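Over 16 results, 67 alternative values were computed. The count of detected members was 4 or 5 of 9, and that of detected arms of the paired hairpins 3 or 4. That of the other overlapping miRNAs was 3. Over the same rules the share of all array miRNAs called ran from 29.4% to 44.4%. With so few members these counts are no result about the group. The rules on 3 times the error and on the deposited floor gave the same counts as the software flag by construction, as undetected miRNAs hold fixed values. The median log2 level of detected members, 0.28, became 2.72 when the percentile was taken over every miRNA spot, because that reference signal was 26.3 in place of 143. The median CV, 6.24%, moved to 23.9% with no filter on dim probes, since probes at background enter it. Values of single miRNAs moved in 13 cases and stayed within their error in 24, and the level of miR-664a-3p changed sign, from -0.07 to 2.37, with the percentile over every miRNA spot. The mean level of miR-3653-5p over both probes, -4.95, was -3.60 from its detected probe alone (an alternative chosen after seeing the data), -1.64 with normexp and -3.50 with deposited values. Normexp also lowered the probe difference of miR-664b-3p to 0.72. No paired analysis was possible because there was 1 array. Signal over background limits the undetected members, whose probe means ran from -1.26 to 4.10.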
